A study of Mus musculus with 12 samples.

Results

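Mitochondrial ribosomal proteins were the 78 genes of 16570 in the deposited table whose symbol begins with Mrpl or Mrps followed by a number, 49 named for the large subunit (Mrpl) and 29 for the small subunit (Mrps). They were measured by RNA sequencing in 12 libraries of bone marrow-derived macrophages, which can become osteoclasts, from C57BL/6J mice 6 to 8 weeks old, 3 libraries in each of 4 groups. The RHC80267 group received 1 µM RHC80267, which is known to inhibit diacylglycerol lipase, and the BMS309403 group 1 µM BMS309403, which is known to inhibit FABP4, a carrier of fatty acids, each together with RANKL at 100 ng/mL. The RANKL group received RANKL alone at that dose, and the M-CSF group received neither RANKL nor an inhibitor. All 4 groups were cultured with M-CSF at 50 ng/mL, and these treatments lasted 2 days. No vehicle is named in the labels, and a growth protocol shared by all samples gives a longer time for RANKL. Whether the 3 libraries of a group came from separate cultures or animals is not given either, so the p-values cover only library-to-library spread within these groups, part or all of which may be technical.

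The mitochondrial ribosome, or mitoribosome, translates the few mRNAs of the mitochondrial genome, which encode core subunits of the respiratory chain and ATP synthase. Its ribosomal RNAs come from the mitochondrial genome, while its proteins are encoded by nuclear genes, made in the cytosol and imported. Some of these proteins descend from bacterial ribosomal proteins and others have no bacterial counterpart. Osteoclasts are rich in mitochondria, and RANKL, the cytokine that drives osteoclast formation, is known to induce mitochondrial biogenesis in their precursors through the coactivator PGC-1beta.

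All 78 genes passed the filter on low counts, with 78 to 1271 expected counts per library. Total expected counts were 17760844 to 18344989 per library. Summed over 8 osteoclast markers, levels were 15855 to 17928 CPM (each count as a share of the library size, scaled as given under the processing) with RHC80267, 6620 to 7463 CPM with BMS309403, 8109 to 10062 CPM with RANKL and 93.4 to 111 CPM with M-CSF. Summed over 7 macrophage markers, they were 19153 to 20236 CPM with RHC80267, 26399 to 28023 CPM with BMS309403, 23732 to 25422 CPM with RANKL and 30333 to 30842 CPM with M-CSF. Lyz2 alone had up to 400408 counts in a library, and the 7 did not all change in the same direction, as given further on. Over the 12 libraries, B cell markers summed to 9.07 to 15.1 CPM, T and NK cell markers to 0.109 to 1.60 CPM, dendritic cell markers to 17.2 to 31.7 CPM and stromal and osteoblast markers to 15.6 to 58.9 CPM. The 58.9 CPM belonged to RHC80267 replicate 1, and some of these markers differed between groups, as given further on. The T cell gene Cd3e had no counts in 9 of 12 libraries.

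Promoter sequence is shown for 5 genes that the comparisons below turn on. Mrps6, Mrpl51 and Mrpl12 were among the genes with the highest fold changes with RANKL, and Mrpl27 and Mrps18c were lower with RHC80267. Each line gives the 120 bases before the start used in the RefSeq promoter table (GRCm38.p6), on the plus strand, at chr16:92058216-92058335 for Mrps6, chr6:125192080-125192199 for Mrpl51, chr11:120484517-120484636 for Mrpl12, chr11:94653671-94653790 for Mrpl27 and chr5:100798639-100798758 for Mrps18c. For Mrpl27 that start lies inside the RefSeq gene, which begins at position 94653770, so the end of its window is part of the gene. Capitals mark a match to 1 of 4 motifs described further on: CCGGAAG in Mrpl51 and Mrpl27, and GCGCCTGCG in Mrpl12.
Mrps6: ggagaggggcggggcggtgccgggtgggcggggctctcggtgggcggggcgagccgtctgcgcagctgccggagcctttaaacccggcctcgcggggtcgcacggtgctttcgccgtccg
Mrpl51: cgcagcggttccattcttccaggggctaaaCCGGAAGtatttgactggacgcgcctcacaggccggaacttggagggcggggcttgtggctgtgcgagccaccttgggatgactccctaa
Mrpl12: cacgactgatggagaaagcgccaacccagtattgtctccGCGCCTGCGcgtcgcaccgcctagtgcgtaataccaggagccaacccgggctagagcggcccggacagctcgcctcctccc
Mrpl27: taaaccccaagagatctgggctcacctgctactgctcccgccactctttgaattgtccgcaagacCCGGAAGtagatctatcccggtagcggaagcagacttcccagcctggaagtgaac
Mrps18c: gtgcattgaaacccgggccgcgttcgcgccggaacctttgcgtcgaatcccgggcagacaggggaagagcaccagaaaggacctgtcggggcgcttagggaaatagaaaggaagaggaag

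The genes differed widely in level. Over the 12 libraries the mean FPKM, which allows for transcript length, had a median of 33.8 for the Mrpl genes and 34.0 for the Mrps genes. The highest mean FPKM belonged to Mrps21 (216), Mrpl52 (200) and Mrpl33 (187). The lowest belonged to Mrpl17 (5.54), Mrpl35 (5.63) and Mrpl19 (6.26). The gene whose level varied most between groups, relative to its mean, was Mrps6, at a mean FPKM of 60.6 with RHC80267, 36.9 with BMS309403, 45.9 with RANKL and 11.97 with M-CSF.

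Summed over all Mrpl genes, RANKL libraries had 1494 to 1555 CPM, against 1163 to 1223 CPM in M-CSF libraries. The Mrps genes summed to 809 to 843 CPM in RANKL libraries, against 638 to 644 CPM in M-CSF libraries. With RHC80267 the sums were 1636 to 1684 CPM for Mrpl and 902 to 908 CPM for Mrps, above every RANKL library. With BMS309403 they were 1481 to 1549 CPM and 809 to 830 CPM, overlapping the RANKL libraries in both subunits. All 78 genes together took 0.262 to 0.268% of counts with RHC80267, 0.225 to 0.234% with BMS309403, 0.231 to 0.242% with RANKL and 0.178 to 0.182% with M-CSF. In these bulk cultures, fewer cells of a type and less RNA per cell cannot be told apart.

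The balance between the subunits overlapped between all groups. The ratio of the Mrpl sum to the Mrps sum was 1.81 to 1.85 with RHC80267, 1.83 to 1.87 with BMS309403, 1.84 to 1.86 with RANKL and 1.82 to 1.91 with M-CSF. Both sums moved across these groups. Symbols do not always match the place of a protein: Mrps18a and Mrps30 sit in the large subunit of the mammalian mitoribosome, and Mrps36 is known as a subunit of the alpha-ketoglutarate dehydrogenase complex. With these genes placed by structure, 51 were large and 26 small, and the mean ratio was 2.13 ± 0.0266 with RHC80267, 2.16 ± 0.0239 with BMS309403, 2.16 ± 0.0259 with RANKL and 2.21 ± 0.0591 with M-CSF (SD, n = 3 each).

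**Figure D1:**
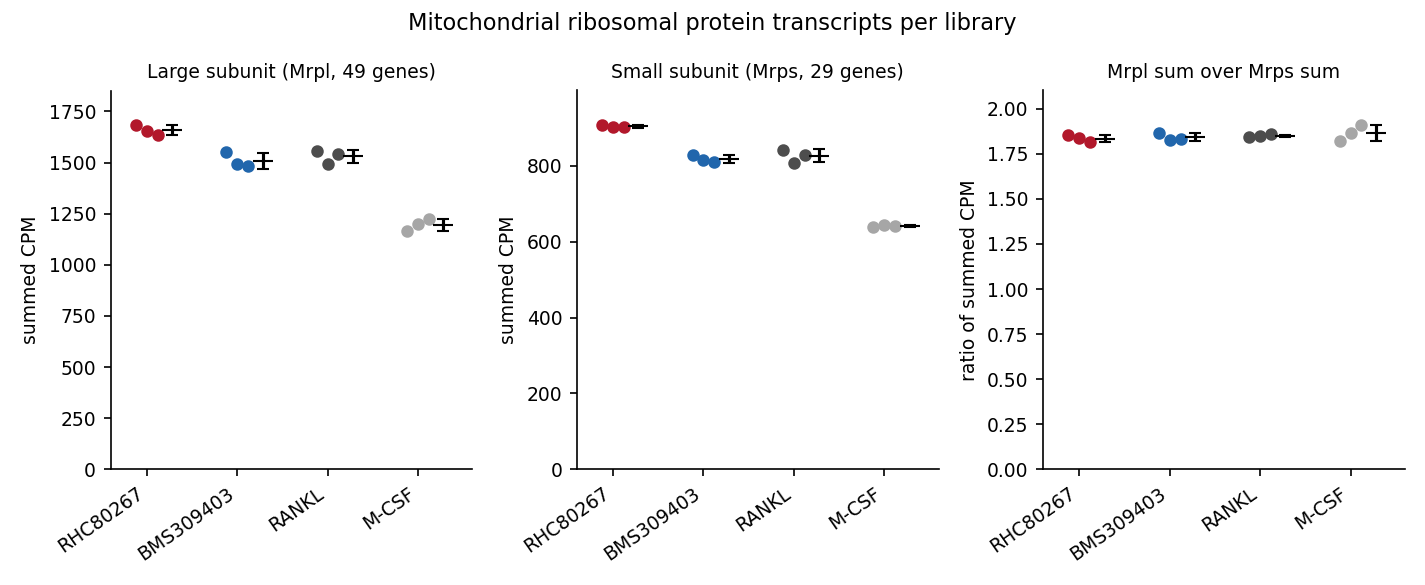
Summed CPM of the 49 Mrpl genes (left), summed CPM of the 29 Mrps genes (middle) and the ratio of the sums (right), with 1 point per library and the mean ± SD (n = 3) beside them. Both sums are highest in the RHC80267 libraries and lowest in the M-CSF libraries, and the ratio lies between 1.81 and 1.91 in all 12.

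RANKL was compared with M-CSF to ask what RANKL changes in these precursors. Of the 78 genes, 71 were higher with RANKL at a Benjamini-Hochberg adjusted p below 0.05 in edgeR's quasi-likelihood test, where 31.4% of all genes tested were higher and 29.8% lower. Called lower were 0, and 0 had a lower level at an unadjusted p below 0.05, in edgeR, DESeq2 and limma-voom alike. The 71 were 45 of 49 Mrpl genes and 26 of 29 Mrps genes. The median log2 fold change was 0.35 for Mrpl and 0.31 for Mrps, against 0.00 for all genes tested. With DESeq2 63 genes were called higher, and 64 to 66 when any 1 library of either group was left out, with 58 genes called in every one of those fits.

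Mrps6, the counterpart of a bacterial small-subunit protein, had 22.4, 21.1 and 19.0 CPM in RANKL libraries, against 5.55, 6.32 and 4.89 CPM in M-CSF libraries. Every RANKL library stood above every M-CSF library, and the log2 fold change was 1.90 ± 0.11 (SE, adjusted p = 2.35e-12). In the annotation 159 of its 1533 exon bases (10.4%) also belong to Slc5a3, the inositol transporter gene on the same strand, which had a log2 fold change of 2.28 in this comparison. Another protein-coding gene on the same strand, Gm49711, shares 305 exon bases (19.9%) with Mrps6. Whether shared reads contribute to the change of Mrps6 was not tested.

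Mrps35, a small-subunit protein with no bacterial counterpart, had 32.2, 28.99 and 29.3 CPM with RANKL, against 13.8, 13.3 and 14.1 CPM with M-CSF, a log2 fold change of 1.13 ± 0.08 (adjusted p = 2.33e-11). Mrpl51, a large-subunit protein also without one, had 43.4, 44.4 and 44.3 CPM with RANKL, against 19.8, 20.3 and 20.8 CPM with M-CSF (1.12 ± 0.06, adjusted p = 5.06e-13). Both genes more than doubled, and no RANKL library overlapped an M-CSF library. Mrps28, a small-subunit protein, had 11.6, 9.61 and 11.02 CPM with RANKL, against 4.37, 5.98 and 4.77 CPM with M-CSF (1.09 ± 0.12, adjusted p = 7.8e-08). Mrpl41, a large-subunit protein, had 24.6, 24.4 and 25.6 CPM with RANKL, against 13.5, 13.8 and 12.8 CPM with M-CSF (0.90 ± 0.08, adjusted p = 9.65e-10). Their libraries did not overlap either.

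Mrpl12 is a protein of the ribosomal stalk, which recruits translation factors, and is also known to bind the mitochondrial RNA polymerase. It had 54.1, 45.7 and 49.6 CPM with RANKL, against 26.4, 26.6 and 27.2 CPM with M-CSF, a log2 fold change of 0.90 ± 0.06 (adjusted p = 9.54e-12). Mrpl44, which has an RNase III-like fold, rose by 0.59 ± 0.06 (adjusted p = 5.52e-09), and Mrps27, a protein with pentatricopeptide repeats, by 0.40 ± 0.07 (adjusted p = 7.8e-05). Mrpl58, a peptidyl-tRNA hydrolase built into the large subunit that rescues stalled ribosomes, was higher by only 0.18 ± 0.07 (adjusted p = 0.0264). DESeq2 did not make that call, and it was lost when any single library other than M-CSF replicate 2 was dropped.

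The 3 paralogues related to a single bacterial protein of the small subunit had unlike fold changes. Mrps18b, a small-subunit protein, had 31.2, 30.0 and 26.5 CPM with RANKL, against 16.9, 16.5 and 15.9 CPM with M-CSF (0.83 ± 0.07, adjusted p = 6.52e-10). Mrps18a, which lies in the large subunit, had 37.4, 34.7 and 37.2 CPM with RANKL, against 27.8, 31.5 and 30.4 CPM with M-CSF (0.28 ± 0.06, adjusted p = 0.00034). Mrps18c, in the small subunit, had 30.7, 29.1 and 30.6 CPM with RANKL, against 23.9, 27.6 and 26.1 CPM with M-CSF (0.22 ± 0.06, adjusted p = 0.00337). All 3 were called higher with separate libraries, and a difference between the paralogues was not tested. Mrps30 was higher by 0.21 ± 0.06 (adjusted p = 0.00394) and Mrps36 by 0.31 ± 0.08 (adjusted p = 0.00308).

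Among called genes with separate libraries, the smallest fold changes were those of Mrps23 (0.14 ± 0.05, adjusted p = 0.0222), Mrps15 (0.15 ± 0.06, adjusted p = 0.024), Mrpl4 (0.16 ± 0.06, adjusted p = 0.0255), Mrps21 (0.17 ± 0.06, adjusted p = 0.0227) and Mrpl58. DESeq2 called none of these 5. Dropping M-CSF replicate 2, M-CSF replicate 3 or RANKL replicate 1 ended the call of Mrps23. For Mrps15 it was M-CSF replicate 3, RANKL replicate 1 or RANKL replicate 3. For Mrpl4 it was M-CSF replicate 1 or RANKL replicate 2, and for Mrps21 M-CSF replicate 1, M-CSF replicate 2 or RANKL replicate 3. Not called were 7 genes: Mrpl24, Mrpl27, Mrpl28, Mrpl30, Mrps11, Mrps24 and Mrps31. Mrpl27, whose bacterial counterpart reaches towards the peptidyl transferase centre, had 40.7, 33.5 and 37.2 CPM with RANKL, against 35.5, 35.9 and 41.8 CPM with M-CSF (−0.02 ± 0.07, adjusted p = 0.779). Mrpl24 was at 53.3 ± 1.27 CPM with RANKL and 53.4 ± 3.41 CPM with M-CSF (SD, n = 3 each).

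By the origin of the protein, 40 of 46 genes with a bacterial counterpart and 30 of 31 without one were called higher, with median log2 fold changes of 0.33 and 0.37. Mrps36 is in neither class.

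BMS309403 was compared with RANKL alone to ask what the FABP4 inhibitor changes during RANKL treatment. Only Mrps34 of the 78 genes was called lower and 0 were called higher, where 3.49% of all genes tested were higher and 3.74% lower. These 425 higher and 455 lower genes became 152 and 111 without RANKL replicate 1. Without BMS309403 replicate 2, 171 genes were higher and 145 lower. At an unadjusted p below 0.05, edgeR placed 3 genes higher and 3 lower, DESeq2 0 and 3, and limma-voom 2 and 3. The median log2 fold change was −0.04 for Mrpl and −0.01 for Mrps, against −0.01 for all genes tested.

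Mrps34, a small-subunit protein with no bacterial counterpart, had 29.2, 25.5 and 26.9 CPM with BMS309403, against 31.1, 32.1 and 31.6 CPM with RANKL. All 3 BMS309403 libraries lay below the RANKL libraries, and the log2 fold change was −0.22 ± 0.06 (adjusted p = 0.0223). DESeq2 did not make this call. Dropping RANKL replicate 1 or 2, or BMS309403 replicate 2 or 3, also ended it. Over all its GENCODE transcripts together, 63.4% of its 2064 exon bases overlap Mapk8ip3 on the opposite strand and 37.0% overlap Nme3 on the same strand. The Mrps34 of the deposited counts spans only chr17:24895120-24896289, so these shares describe a longer gene than the one counted. Whether the kit kept strand is not given, so it is not known whether reads of such pairs were told apart.

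The remaining values are given for genes named with RANKL, from the same RANKL libraries, and none of them passed the test. Mrps6 had 19.2, 15.6 and 17.2 CPM with BMS309403, overlapping its RANKL libraries, at a log2 fold change of −0.26 ± 0.09 (adjusted p = 0.0873). Mrps35 had 24.8, 27.0 and 27.7 CPM with BMS309403, below each RANKL library (−0.19 ± 0.07, adjusted p = 0.112). Mrps28 was at −0.16 ± 0.11 (adjusted p = 0.466) and Mrpl51 at −0.11 ± 0.05 (adjusted p = 0.292). Mrpl12 was at −0.05 ± 0.05 (adjusted p = 0.655), Mrpl44 at −0.11 ± 0.05 (adjusted p = 0.278), Mrps27 at −0.10 ± 0.07 (adjusted p = 0.482) and Mrpl58 at 0.05 ± 0.06 (adjusted p = 0.722). Mrps18a, Mrps18b, Mrps18c, Mrps30 and Mrps36 ranged between −0.11 and 0.14, none of them called.

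RHC80267 was compared with RANKL alone to ask what the diacylglycerol lipase inhibitor changes during RANKL treatment. Of the 78 genes, 32 were higher with RHC80267 and 4 lower, where 26.9% of all genes tested were higher and 23.0% lower. The Mrpl genes held 20 of the higher calls and 3 of the lower, the Mrps genes 12 and 1. The median log2 fold change was 0.11 for Mrpl and 0.09 for Mrps, against 0.02 for all genes tested. The number of higher calls was 19 with DESeq2, 21 without the filter on low counts and 19 without RANKL replicate 2. Over all genes, the higher calls were 3272 in the main fit and 2706, 3061 and 2666 in these fits. Of the 32 member calls, 18 were made whichever 1 library was left out.

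Mrpl38, a large-subunit protein of the central protuberance, had 27.8, 26.8 and 30.5 CPM with RHC80267, against 19.2, 18.1 and 20.3 CPM with RANKL (0.56 ± 0.07, adjusted p = 1.29e-06). Mrpl34, the counterpart of a bacterial large-subunit protein, had 29.5, 26.5 and 27.4 CPM with RHC80267, against 21.04, 19.8 and 20.3 CPM with RANKL (0.45 ± 0.06, adjusted p = 4.3e-06). Mrps25, a small-subunit protein, had 68.4, 64.9 and 58.3 CPM with RHC80267, against 47.4, 46.4 and 47.1 CPM with RANKL (0.44 ± 0.05, adjusted p = 4.03e-07). In all 3 genes the lowest RHC80267 library stood above the highest RANKL library. The exons of Mrps25 overlap those of Nr2c2 on the opposite strand over 69.8% of their bases, and Nr2c2 itself was at a log2 fold change of 0.04.

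Mrps35 had 35.9, 43.1 and 39.7 CPM with RHC80267, above every RANKL library (0.39 ± 0.07, adjusted p = 3.84e-05). Mrps28 had 13.5, 14.4 and 14.4 CPM with RHC80267 (0.39 ± 0.10, adjusted p = 0.00281), and Mrps6 had 30.1, 24.6 and 26.9 CPM with RHC80267 (0.39 ± 0.08, adjusted p = 0.000697). All 3 genes had also risen with RANKL, and their RHC80267 libraries did not overlap the RANKL libraries. Mrpl51 had 55.9, 58.7 and 51.6 CPM with RHC80267 (0.33 ± 0.05, adjusted p = 1.86e-05), and Mrpl12 had 65.1, 61.4 and 62.1 CPM with RHC80267 (0.34 ± 0.05, adjusted p = 1.33e-05). Mrpl41, which rose with RANKL, had 25.8, 27.1 and 24.1 CPM with RHC80267 and overlapped its RANKL libraries (0.04 ± 0.07, adjusted p = 0.61). Slc5a3, which shares exon bases with Mrps6, was at 0.64.

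Mrpl33, the counterpart of a bacterial large-subunit protein, had 25.8, 26.0 and 23.8 CPM with RHC80267, against 30.7, 32.6 and 34.5 CPM with RANKL (−0.37 ± 0.06, adjusted p = 2.02e-05). Mrps18c had 24.3, 24.5 and 25.7 CPM with RHC80267, against 30.7, 29.1 and 30.6 CPM with RANKL (−0.28 ± 0.06, adjusted p = 0.000662). Mrpl27 had 31.1, 30.2 and 31.8 CPM with RHC80267, against 40.7, 33.5 and 37.2 CPM with RANKL (−0.26 ± 0.07, adjusted p = 0.00364). All 3 fell with no overlap between libraries, and the calls held whichever 1 library was left out. For Mrpl33 and Mrps18c the RHC80267 libraries overlapped the M-CSF libraries, and for Mrpl27 they lay below them. Of the exon bases of Mrps18c, 23.2% are also assigned to Gm43511 on the same strand. The fourth lower call, Mrpl39, had 34.5, 34.4 and 35.8 CPM with RHC80267, against 40.8, 36.1 and 39.1 CPM with RANKL (−0.15 ± 0.06, adjusted p = 0.0428). DESeq2 did not make this call, and dropping RANKL replicate 1, RANKL replicate 3 or any single RHC80267 library ended it.

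Mrps18a was at −0.00 ± 0.06 (adjusted p = 0.954) with RHC80267 and Mrps18b at 0.08 ± 0.06 (adjusted p = 0.288), so that of the 3 paralogues only Mrps18c was called. Smaller increases were those of Mrpl44 (0.14 ± 0.05, adjusted p = 0.0331), Mrps27 (0.18 ± 0.07, adjusted p = 0.0359), Mrpl58 (0.18 ± 0.06, adjusted p = 0.0252), Mrps30 (0.16 ± 0.06, adjusted p = 0.0236) and Mrpl43 (0.12 ± 0.05, adjusted p = 0.0383). DESeq2 called none of these 5 and neither did edgeR without the filter, and each was lost without RANKL replicate 2 and 2 or more other single libraries. Of the exon bases of Mrpl43, 33.4% are shared with Twnk on the opposite strand, which was at 0.35 (adjusted p = 0.00602). Whether shared reads contribute to the change of Mrpl43 was not tested. Mrps36 was at 0.11 ± 0.08 (adjusted p = 0.259) with all libraries, and at 0.23 and called without RANKL replicate 3 (adjusted p = 0.0143).

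**Figure D2:**
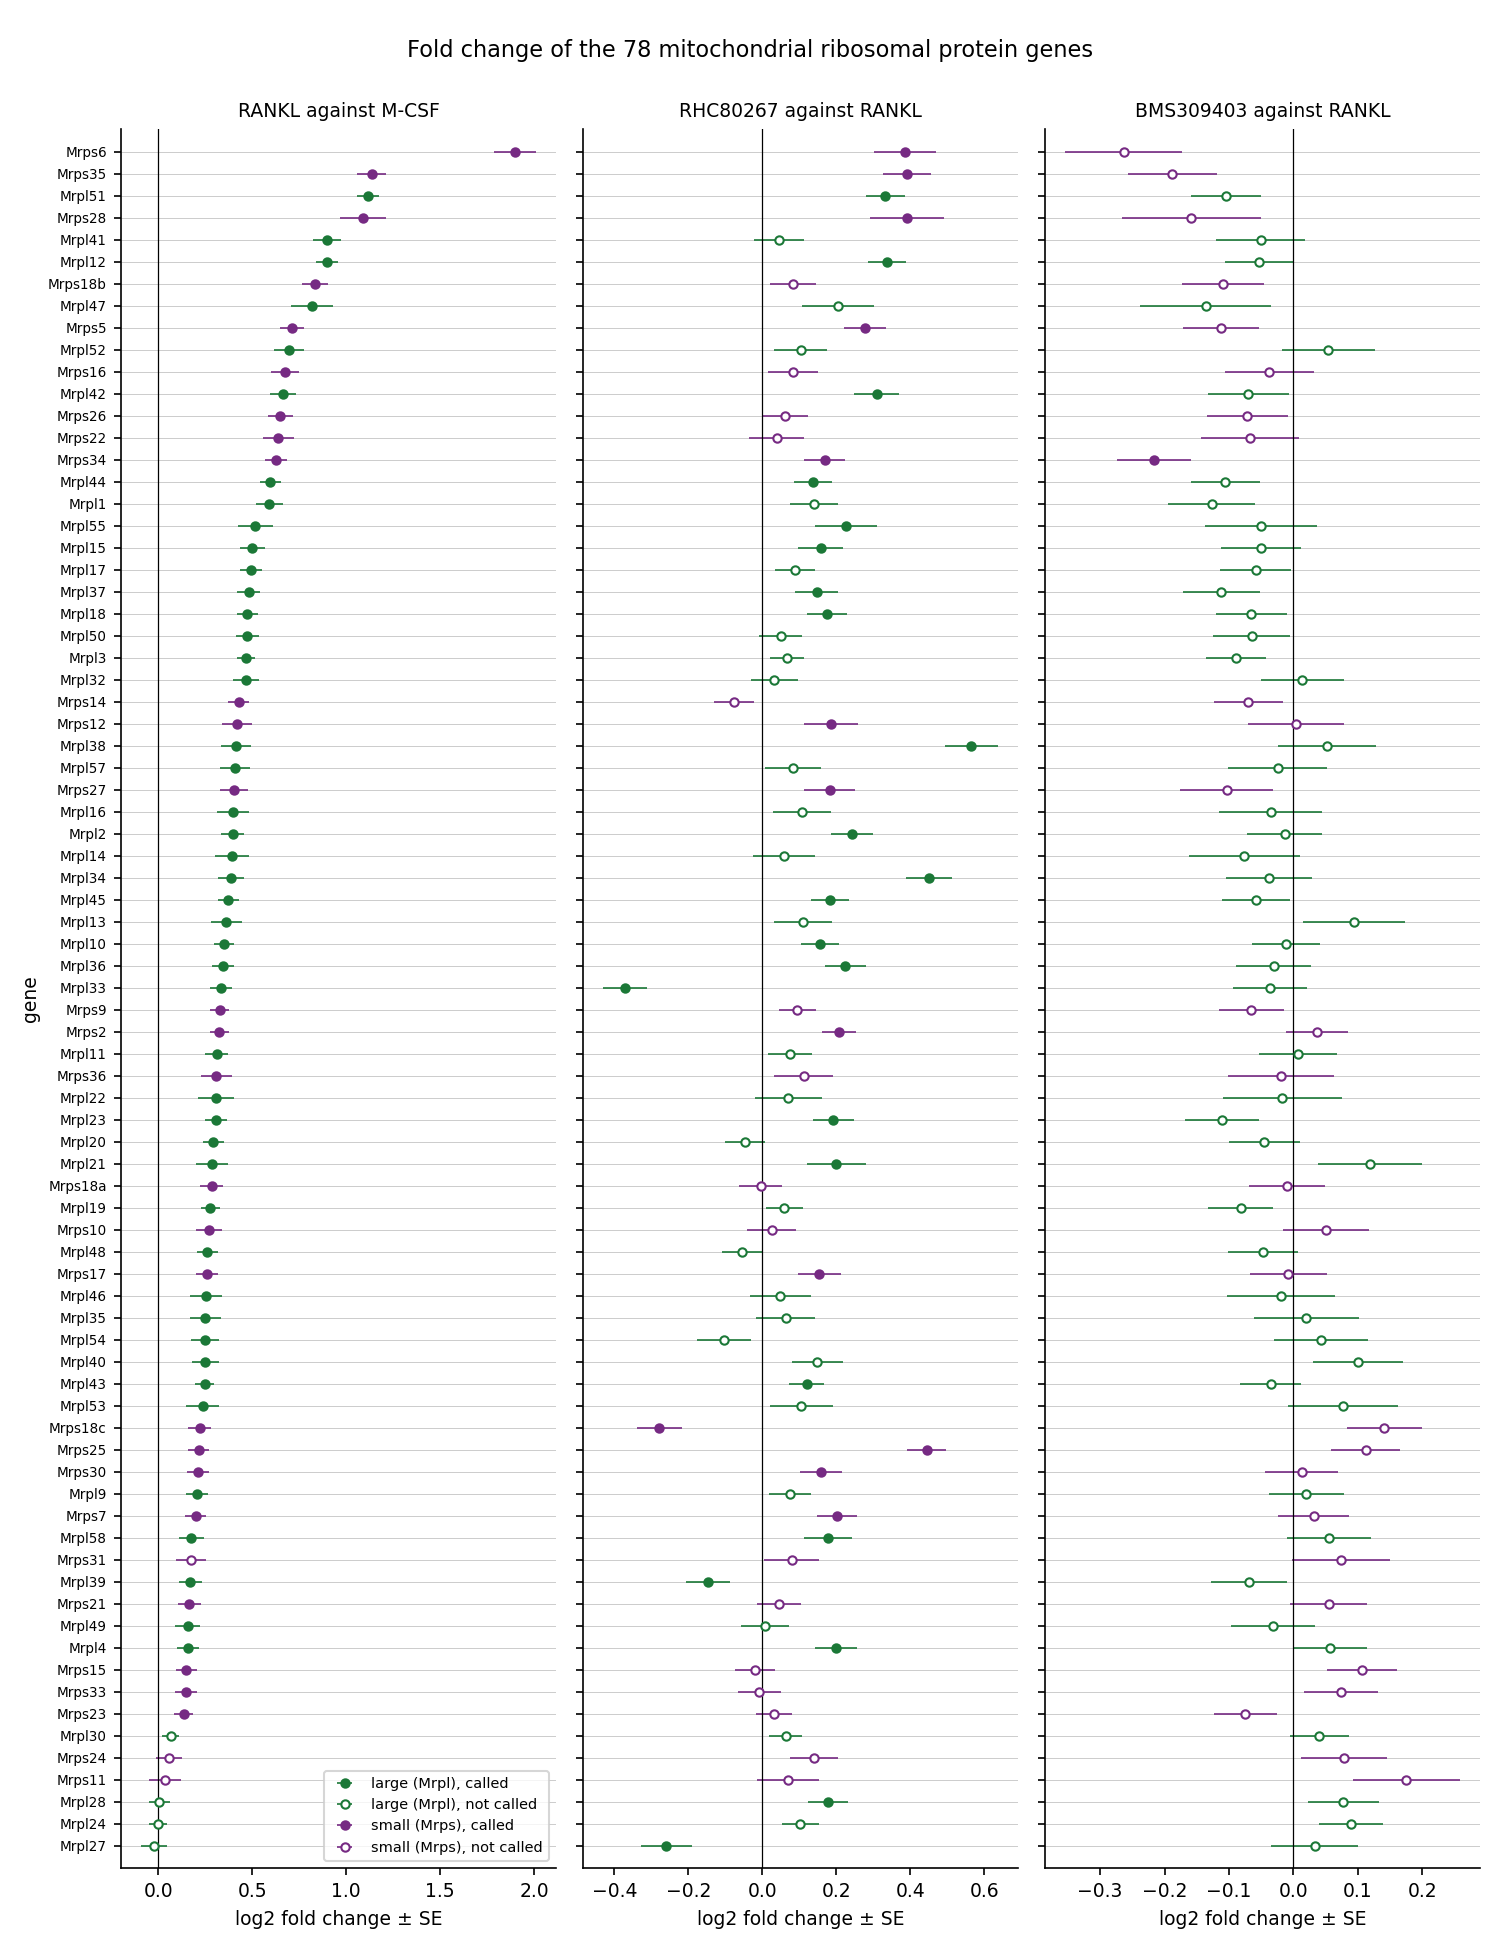
Log2 fold change ± SE of all 78 genes, 1 row per gene in the order of the RANKL against M-CSF comparison. Panels from left to right show RANKL against M-CSF, RHC80267 against RANKL and BMS309403 against RANKL, each with its own horizontal scale. Filled points are called at an adjusted p below 0.05. The first panel has 71 filled points, all above 0, the second has 36 and the third has 1.

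**Figure D3:**
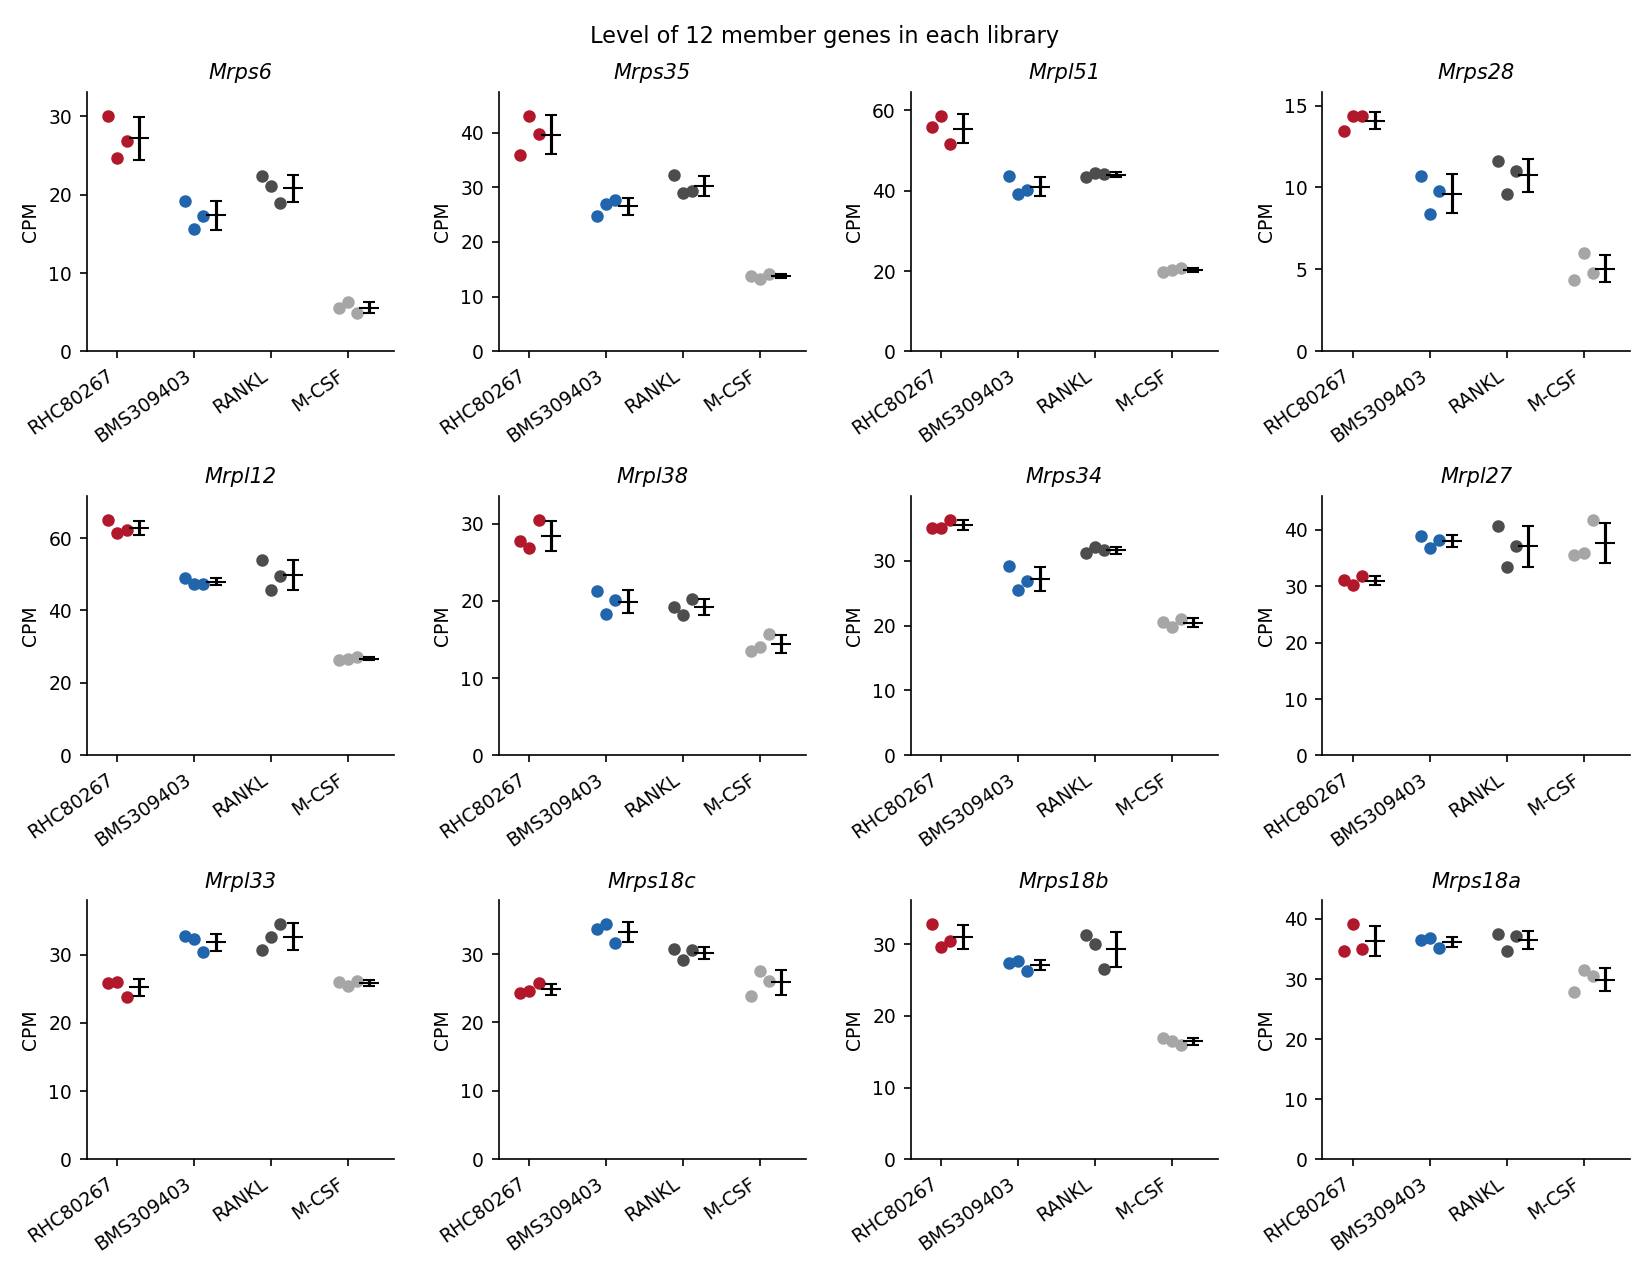
CPM of 12 genes, with 1 point per library and the mean ± SD (n = 3) beside them, on axes that start at 0. Mrps6, Mrps35, Mrpl51, Mrps28, Mrpl12 and Mrpl38 are highest with RHC80267 and lowest with M-CSF. Mrpl33 and Mrps18c are lower with RHC80267 than with RANKL, near their M-CSF level, and Mrpl27 is lower with RHC80267 than in the other 3 groups.

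The inhibitor groups share no library, so their difference was tested directly. RHC80267 was higher than BMS309403 for 36 of the 78 genes and lower for 3, where 30.1% of all genes tested were higher and 25.5% lower. The Mrpl genes held 22 of the higher calls and 2 of the lower (median log2 fold change 0.12), and the Mrps genes 14 and 1 (0.13), against a median of 0.03 over all genes tested. With any 1 library left out there were 25 to 34 higher calls and 3 to 5 lower, and 23 genes were called higher in every such fit. The 5 lower calls came without BMS309403 replicate 3. Over all genes, the fits with 1 library left out gave 3008 to 3369 higher calls and 2807 to 3196 lower. The compounds differ in target and were given at the same dose and for the same time.

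The largest differences were in genes described above. Mrps6 had 30.1, 24.6 and 26.9 CPM with RHC80267, against 19.2, 15.6 and 17.2 CPM with BMS309403 (0.65 ± 0.09, adjusted p = 1.82e-06). Slc5a3, which shares exon bases with Mrps6, was at 1.16 in this comparison. Mrps35 averaged 39.6 ± 3.598 CPM with RHC80267 and 26.5 ± 1.51 CPM with BMS309403 (0.58 ± 0.07, adjusted p = 2.02e-07). Mrps28 differed by 0.55 ± 0.10 (adjusted p = 0.000113), Mrpl38 by 0.51 ± 0.07 (adjusted p = 3.13e-06) and Mrpl34 by 0.49 ± 0.06 (adjusted p = 1.11e-06). The smallest called differences with separate libraries were those of Mrpl19 (0.14 ± 0.05, adjusted p = 0.0218), lost with DESeq2, and Mrps30 (0.15 ± 0.06, adjusted p = 0.033), lost with DESeq2 and whichever 1 library was left out. Mrpl19 was also lost without any 1 BMS309403 library or RHC80267 replicate 1.

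Lower with RHC80267 than with BMS309403 were Mrps18c, Mrpl33 and Mrpl27. Mrps18c averaged 24.8 ± 0.778 CPM with RHC80267 and 33.2 ± 1.4997 CPM with BMS309403 (SD, n = 3 each), a log2 fold change of −0.42 ± 0.06 (adjusted p = 4.27e-06). Mrpl33 averaged 25.2 ± 1.22 CPM with RHC80267 and 31.8 ± 1.24 CPM with BMS309403 (−0.34 ± 0.06, adjusted p = 5.62e-05). Mrpl27 averaged 31.0 ± 0.787 CPM with RHC80267 and 38.0 ± 1.06 CPM with BMS309403 (−0.29 ± 0.07, adjusted p = 0.00113). They are the same genes as the lower calls against RANKL that held in every fit, and no library of one inhibitor overlapped the other.

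Of the remaining genes followed in all comparisons, Mrpl12 differed by 0.39 ± 0.05 (adjusted p = 1.52e-06), Mrpl44 by 0.24 ± 0.05 (adjusted p = 0.000502), Mrps27 by 0.28 ± 0.07 (adjusted p = 0.00177) and Mrps18b by 0.19 ± 0.06 (adjusted p = 0.0134). The call of Mrps18b was lost without BMS309403 replicate 1 or 3 or RHC80267 replicate 1. Mrpl58 was at 0.12 ± 0.06 (adjusted p = 0.108), Mrps36 at 0.13 ± 0.08 (adjusted p = 0.174) and Mrps18a at 0.01 ± 0.06 (adjusted p = 0.949).

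Set side by side, RANKL against M-CSF and RHC80267 against BMS309403 use 4 separate groups. Across the 78 genes their log2 fold changes had a Pearson r of 0.66 and a Spearman rho of 0.64, and 0.63 and 0.62 without Mrps6. Over all 12168 genes tested the values were 0.32 and 0.29, over 81 nuclear respiratory chain genes 0.77 and 0.77, and over 82 cytosolic ribosomal protein genes 0.80 and 0.58. These are descriptions across genes, which are not independent replicates and share libraries, depth and scaling within a comparison.

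**Figure D4:**
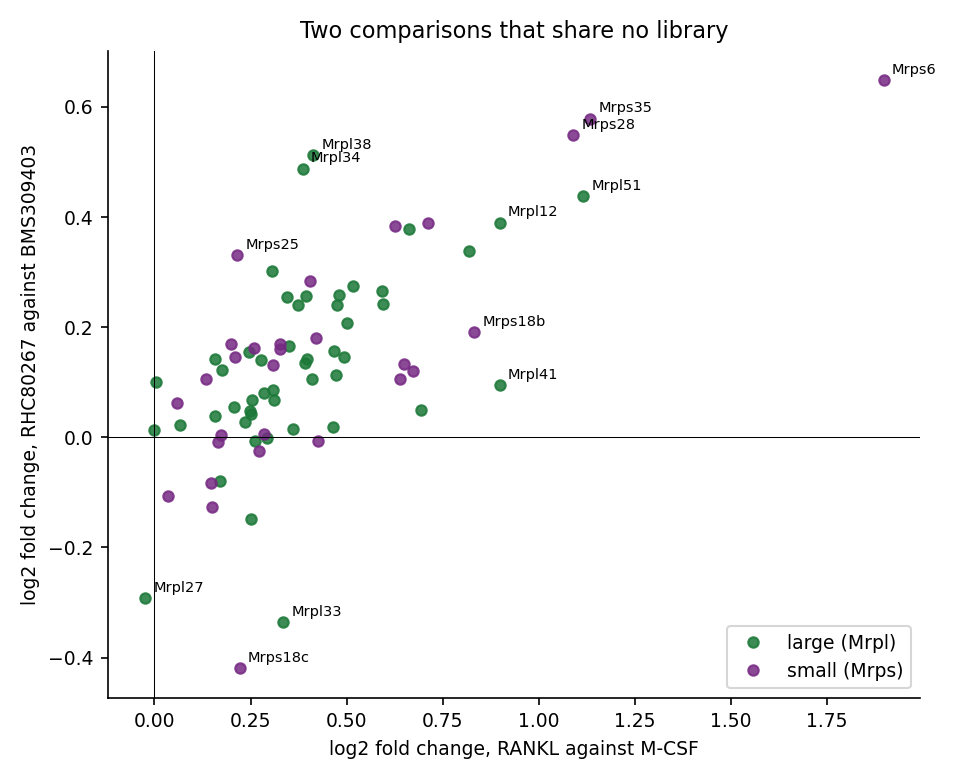
Log2 fold change of the 78 genes in RANKL against M-CSF (horizontal) and RHC80267 against BMS309403 (vertical), with Mrpl and Mrps genes in different colours. Mrps6 lies at the upper right, at 1.90 and 0.65, and Mrpl27, Mrpl33 and Mrps18c lie below 0 on the vertical axis.

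The other proteins of the mitochondrial translation system were followed as lists. Over all genes tested, 31.4% rose and 29.8% fell with RANKL, and 26.9% rose and 23.0% fell with RHC80267 against RANKL. With BMS309403 against RANKL 3.49% were higher and 3.74% lower. Of 5 mitoribosome proteins with other symbols, 4 rose with RANKL, 0 were called with BMS309403, and 4 rose with RHC80267 against RANKL. Among them Ptcd3, a small-subunit protein with pentatricopeptide repeats, was at 43.1 ± 1.795 CPM with RHC80267, 31.8 ± 1.5 CPM with BMS309403, 35.9 ± 3.40 CPM with RANKL and 22.5 ± 0.396 CPM with M-CSF. Its log2 fold change was 0.67 ± 0.07 with RANKL (adjusted p = 1.1e-08) and 0.27 ± 0.06 with RHC80267 against RANKL (adjusted p = 0.00089). Dap3, a small-subunit GTP-binding protein, rose by 0.37 ± 0.06 with RANKL, and Gadd45gip1, a large-subunit protein, by 0.46 ± 0.08 with RHC80267.

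Of 16 genes listed as translation factors, which include other genes of mitochondrial gene expression such as Lrpprc, 9 rose with RANKL. Of the same 16, 2 fell with BMS309403 and 11 rose with RHC80267 against RANKL. Tufm, the elongation factor that delivers aminoacyl-tRNA, rose by 0.67 ± 0.04 with RANKL and by 0.37 ± 0.04 with RHC80267 and fell by 0.15 with BMS309403 (SE 0.04, adjusted p = 0.026). Lrpprc, which stabilises mitochondrial mRNAs, was at 0.69 ± 0.05 with RANKL, 0.37 ± 0.04 with RHC80267 and −0.15 ± 0.04 with BMS309403. Neither BMS309403 call was made by DESeq2, without the filter on low counts or when only both groups compared were fitted, and both ended when RANKL replicate 1, RANKL replicate 2 or BMS309403 replicate 2 was dropped. That of Lrpprc was also lost with RLE factors (adjusted p = 0.0517) and the stricter filter (adjusted p = 0.0509). Of 22 genes listed as mitochondrial tRNA synthetases, which include the amidotransferase subunit genes Qrsl1, Gatb and Gatc, 16 rose and 1 fell with RANKL. With RHC80267 11 rose and 1 fell. Tars2, the threonine enzyme, rose by 0.77 ± 0.06 with RANKL and by 0.63 ± 0.05 with RHC80267, and Gars, the glycine enzyme of both cytosol and mitochondria, by 0.54 ± 0.04 with RANKL and by 0.22 ± 0.04 with RHC80267.

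The 23 assembly genes were less uniform with RANKL, where 10 (43.5%) rose and 2 (8.70%) fell at a median of 0.08. Afg3l2, a subunit of the inner-membrane protease that processes a mitoribosomal protein, rose by 0.66 ± 0.05, while Rbfa, which matures the small-subunit RNA, fell by 0.42 (SE 0.05, adjusted p = 1.1e-07). With RHC80267 against RANKL 12 assembly genes rose, among them Noa1, a GTPase of small-subunit assembly, by 0.68 ± 0.06. With BMS309403 Afg3l2 was called at −0.19 ± 0.05 and Lonp1, a matrix protease, at −0.18 ± 0.04. Both calls were lost without RANKL replicate 1 or BMS309403 replicate 2, that of Afg3l2 also without BMS309403 replicate 1 or 3. Of 13 genes for mitochondrial transcription and DNA maintenance, 2 (15.4%) rose and 1 (7.69%) fell with RANKL, both below the shares of all genes tested (31.4% and 29.8%). Of the same 13, 1 was called lower with BMS309403 and 6 (46.2%) rose with RHC80267. The BMS309403 call was Mterf2, a transcription termination factor family member, at 0.956 ± 0.322 CPM with BMS309403 and 1.80 ± 0.156 CPM with RANKL (SD, n = 3 each; −0.91 ± 0.26, adjusted p = 0.038 in edgeR). It was lost without any 1 of the RANKL libraries and without BMS309403 replicate 2 or 3. Against M-CSF, Mterf2 was 1 of the 2 genes that rose with RANKL, where the highest log2 fold change of the 13 was 1.99. Polrmt, the mitochondrial RNA polymerase, was at 0.45 ± 0.10 with RHC80267 (adjusted p = 0.00052), and Tfb2m, its initiation factor, at 0.19 ± 0.05 with RANKL.

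The products of mitochondrial translation join nuclear-encoded partners in the respiratory chain and ATP synthase. Of 81 tested nuclear genes listed for these, 78 (96.3%) rose with RANKL, at a median log2 fold change of 0.64, where 31.4% of all genes tested rose. Not all of the 81 are such partners, since the list also holds genes of complex II, such as Sdha. With RHC80267 against RANKL 67 of the 81 (82.7%) rose (median 0.21), and with BMS309403 7 (8.64%) fell (median −0.04). Cyc1, cytochrome c1 of complex III, was at 166 ± 2.84 CPM with RHC80267, 102 ± 2.995 CPM with BMS309403, 115 ± 7.42 CPM with RANKL and 39.0 ± 1.604 CPM with M-CSF. Cytosolic ribosomal protein genes rose with RANKL in 63 of 82 cases (76.8%, median 0.21). With RHC80267 against RANKL 5 (6.10%) rose and 4 (4.88%) fell (median 0.00), where 26.9% of all genes tested rose and 23.0% fell. None of these lists was tested against another.

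**Figure D5:**
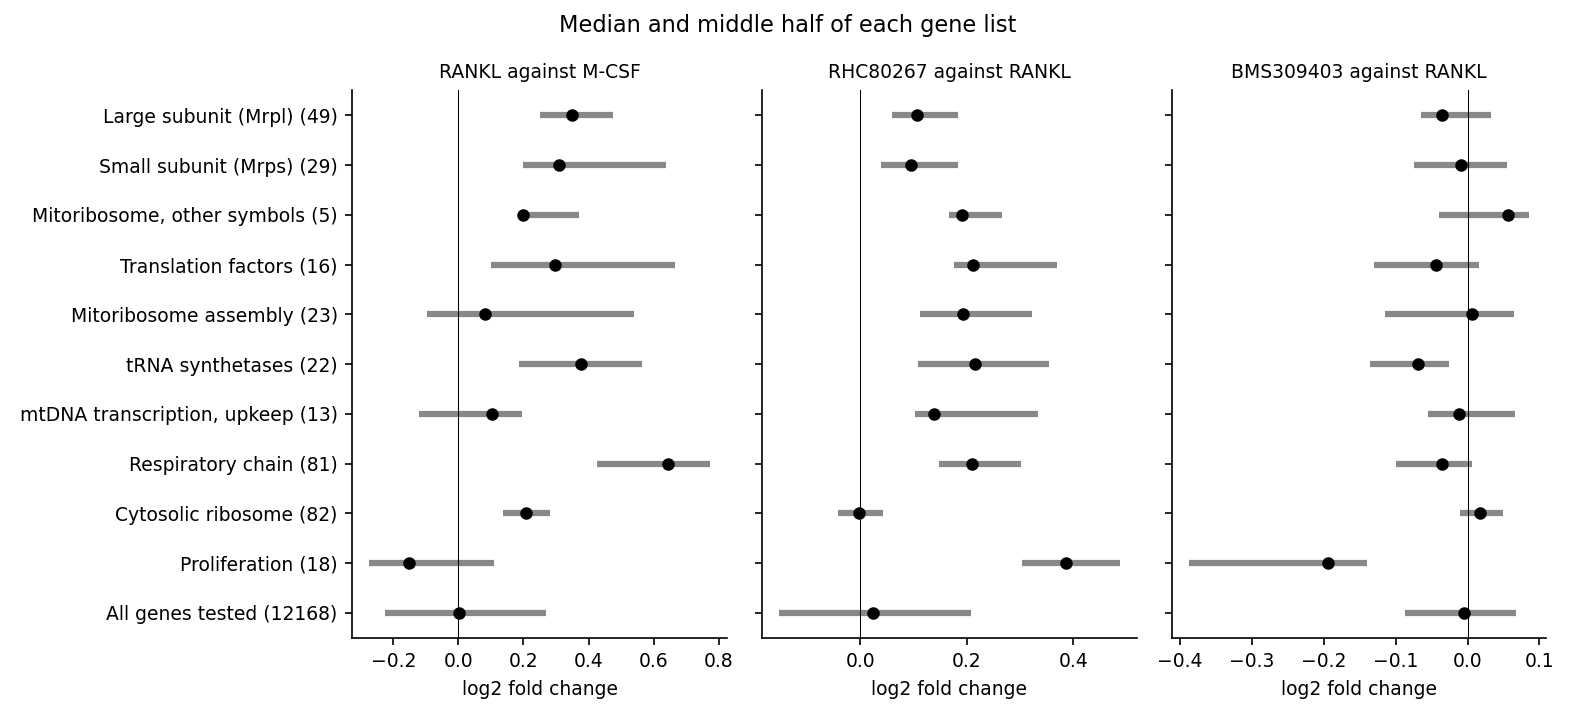
Median (point) and the range between the lower and upper quartile (bar) of log2 fold changes in each gene list, with the number of genes tested in brackets and all genes tested in the bottom row, for RANKL against M-CSF, RHC80267 against RANKL and BMS309403 against RANKL. The Mrpl and Mrps medians of 0.35 and 0.31 with RANKL lie between the cytosolic ribosome at 0.21 and the respiratory chain at 0.64.

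Of 11 tested genes known from other work as regulators of mitochondrial biogenesis or growth, 4 (36.4%) rose and 3 (27.3%) fell with RANKL. These shares are near those of all genes tested, of which 31.4% rose and 29.8% fell. Ppargc1b, which encodes PGC-1beta, was at 86.1 ± 6.26 CPM with RHC80267, 40.2 ± 1.49 CPM with BMS309403, 53.6 ± 3.33 CPM with RANKL and 6.11 ± 0.518 CPM with M-CSF. Its log2 fold changes were 3.13 ± 0.08 with RANKL, −0.41 ± 0.06 with BMS309403 and 0.68 ± 0.05 with RHC80267, all called. Esrra, the nuclear receptor that PGC-1beta acts with, rose by 0.57 ± 0.05 with RANKL and by 0.51 ± 0.05 with RHC80267. Myc, a growth regulator, rose by 1.61 ± 0.11 with RANKL and was at −0.22 ± 0.10 with RHC80267 (adjusted p = 0.056). It fell by 0.42 with BMS309403, a call that ended when RANKL replicate 1, RANKL replicate 2 or BMS309403 replicate 3 was dropped. The transcription factor gene Nrf1 fell by 0.36 with RANKL, and Gabpa, an ETS factor gene, was at −0.01 ± 0.04.

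Other gene groups moved alongside. Of 18 proliferation genes, 16 were higher with RHC80267 than with RANKL and their summed level was 789 to 856 CPM with RHC80267, 600 to 616 CPM with BMS309403, 638 to 705 CPM with RANKL and 776 to 841 CPM with M-CSF. Relative to M-CSF, 8 of the 18 (44.4%) fell with RANKL and 4 (22.2%) rose, where 29.8% of all genes tested fell and 31.4% rose. With BMS309403 against RANKL 7 of the 18 were lower and 0 higher, where 3.74% of all genes tested were lower and 3.49% higher. Neutrophil markers summed to 464 to 690 CPM with RHC80267, 992 to 1060 CPM with BMS309403, 951 to 1089 CPM with RANKL and 740 to 1034 CPM with M-CSF, and 6 of 7 were lower with RHC80267 than with RANKL. All 8 osteoclast markers were higher with RANKL than with M-CSF and higher with RHC80267 than with RANKL, and 6 were lower with BMS309403. Of 7 macrophage markers, 6 were lower with RANKL than with M-CSF, and 3 were higher with BMS309403 than with RANKL. With RHC80267 against RANKL 4 of the 7 were lower and 1 higher, where 26.9% of all genes tested were higher and 23.0% lower. In that comparison 3 of 5 B cell markers were lower and 1 higher. Of 4 tested stromal and osteoblast markers, 2 were higher there and 1 lower. Megakaryocyte markers summed to 110 to 114 CPM with RHC80267, 98.1 to 111 CPM with BMS309403, 90.5 to 94.3 CPM with RANKL and 293 to 307 CPM with M-CSF, but 2 of the 3 were lower and 1 was higher with RHC80267 than with RANKL (median −1.90). The part of these groups in the changes of the mitoribosomal genes was not tested.

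The 78 genes lie on 17 chromosomes. In RefSeq (GRCm38.p6), Mrps6 lies at chr16:92058336-92112227, Mrps35 at chr6:147042728-147070906, Mrpl51 at chr6:125192200-125194392, Mrpl12 at chr11:120484637-120488754, Mrps34 at chr17:24895120-24896289, Mrpl33 at chr5:31613951-31622644 and Mrps18c at chr5:100798759-100804467 on the plus strand. Mrpl38 lies at chr11:116131817-116138868 on the minus strand. In GENCODE M21, 33 of them (42.3%) have a protein-coding neighbour on the opposite strand whose 5′ end lies within 1000 bp, against 1969 of 11893 tested protein-coding genes (16.6%). Mrpl46 and Mrps11 are each other's neighbour, with 5′ ends 412 bp apart, and they share 173 exon bases in the annotation. With RANKL, Mrpl46 was at 0.25 ± 0.09 (adjusted p = 0.0146) and Mrps11 at 0.03 ± 0.09 (adjusted p = 0.748). Of the 28 tested neighbours that are not mitoribosomal genes, 10 (35.7%) rose and 4 (14.3%) fell with RANKL (median 0.07). Over all genes tested 31.4% rose and 29.8% fell. With RHC80267 against RANKL 13 (46.4%) rose and 8 (28.6%) fell (median 0.16), where 26.9% of all genes tested rose and 23.0% fell.

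Some of these pairs moved together and others did not. Mrpl47 rose by 0.82 ± 0.11 with RANKL beside Ndufb5, a subunit of complex I, at 0.53. In the annotation 616 of its 4419 exon bases (13.9%) are shared with Ndufb5 on the opposite strand. Whether reads there were told apart is not known. Mrpl51 rose by 1.12 beside Ncapd2, a condensin subunit 100 bp away, at −0.09 (adjusted p = 0.308). Mrps18c and Helq, a DNA helicase gene 29 bp away, were at −0.28 and −0.37 with RHC80267 against RANKL, both called. Mrpl27 fell by 0.26 in that comparison beside Eme1, a DNA repair nuclease subunit, which was at 0.56 (adjusted p = 0.0264).

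Promoters of 300 bases, 250 before and 50 after the start, were given in RefSeq (GRCm38.p6) for 69 of the 78 genes and for 27025 genes in all, of which 9825 were tested. Both strands were searched for 4 motifs. The ETS motif CCGGAAG was in 26 of the 69 (37.7%), in 9.93% of all promoters and in 20.5% of those of tested genes. The NRF1 motif GCGCNTGCG was in 18 (26.1%), in 7.12% of all and in 15.3% of tested genes. The YY1 motif AAGATGGCG was in 8 (11.6%), in 1.64% of all and in 3.59% of tested genes. The E-box CACGTG was in 5 (7.25%), in 8.09% of all and in 11.7% of tested genes.

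A match is a description of the letters and not a bound site. In the sequences printed above, the capital CCGGAAG stands in Mrpl51, which rose with RANKL by 1.12, and in Mrpl27, which was at −0.02. The 120 bases of Mrps6 and Mrps18c hold none of the 4 motifs. In the longer promoters used for the counts, Mrps18c had 1 ETS match and 1 E-box match, and Mrps6 had none. Genes with the ETS motif had a median log2 fold change of 0.36 with RANKL and those without it 0.31, and for the NRF1 motif the medians were 0.36 and 0.31. For RHC80267 against BMS309403 the medians were 0.11 with and 0.13 without the ETS motif, and 0.14 with and 0.11 without the NRF1 motif.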

How the data were processed

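The deposited table holds read counts and FPKM per gene and library, per the file headers. Over all 16570 genes, those at 0 included, between 9.49% and 9.89% of a library's read counts lay more than 1e-06 from a whole number, so they were taken to be expected counts that the authors estimated with RSEM. The submitters' processing notes name RSEM 1.3.1, Bowtie2 and DESeq2 1.4.5, and the strand setting is not given in the sources used here. The authors' deposited table also gives log2 fold changes and q-values, read here at a q-value below 0.05. With RANKL against M-CSF 58 of the 78 genes (74.4%) were higher, against 19.5% of all genes with a q-value. With BMS309403 against RANKL 0 were called, against 1.95% of all genes higher and 1.32% lower. With RHC80267 against RANKL 13 (16.7%) were higher and 3 (3.85%) lower, against 13.4% and 14.8% of all genes. With RHC80267 against BMS309403 21 (26.9%) were higher and 3 (3.85%) lower, against 16.1% and 17.2%. The deposited FPKM values were used for levels between genes and, as an alternative, for the subunit ratio and share.

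Expected counts were rounded, filtered with filterByExpr by group (12168 genes tested, 4402 removed) and scaled by TMM. All 12 libraries entered 1 quasi-likelihood fit (edgeR 4.0.16, R 4.3.3) that had 1 coefficient per group and left 8 residual degrees of freedom, and each of 4 comparisons is a contrast in it. The common biological coefficient of variation was 0.037. Tests are 2-sided, and p-values were adjusted by Benjamini-Hochberg over all genes tested, with calls below 0.05. CPM use the TMM-scaled library size, and fold changes are given on the log2 scale. Their SE was derived as the absolute log2 fold change divided by the square root of the F statistic of the quasi-likelihood test. Separate libraries means that the CPM of the groups do not overlap.

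The members, the lists of other genes, the motifs and the naming rule were chosen with earlier results of these data known. The rule names 9 members in every comparison, up to 5 called members with the highest and up to 5 with the lowest fold change and separate libraries in each comparison, up to 2 genes per list with the smallest p, and the members with the extreme FPKM or relative range. Other named members and neighbours were chosen after their values were seen. Gene positions and exon overlaps are from GENCODE M21 and RefSeq on GRCm38. The NRF1 and YY1 motifs were first searched in longer forms, and the shorter forms given here, which match more promoters of members and of other genes, were set after that search. Overlaps use exons of all transcripts: 33 members share exon bases with another gene, 9 of them over 20%.

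Alternatives were RLE factors, DESeq2 1.42.0, limma-voom (limma 3.58.1), no filter, a stricter filter (1 CPM in 3 libraries), the groups compared alone, a replicate block and each library left out. No columns of other series were in the table.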

Additional observations from a re-analysis of the deposited data

How the results depend on the processing

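For the BMS309403 comparison, DESeq2 called 0 genes lower in place of 1, and the fits with a library left out called 0 to 2. For RHC80267 against RANKL, 19 members were higher with DESeq2 and 21 without the filter, and 19 to 30 with a library left out. Over all genes, 2706 were higher with DESeq2, 3061 without the filter and 2666 to 3094 with a library left out. For RHC80267 against BMS309403, 5 genes were lower when only those groups were fitted, and 3 to 5 with a library left out, and the Mrps median was then 0.11 in place of 0.13. The causes were not tested. With a library left out, medians that moved by more than their spread ranged from 0.31 to 0.38 (RANKL, Mrpl), −0.0362 to 0.0186 (BMS309403, Mrps), 0.0823 to 0.126 (RHC80267 against RANKL, Mrps), and 0.0813 to 0.142 (Mrpl) and 0.10 to 0.14 (Mrps) for RHC80267 against BMS309403.

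Placed by structure, the ratio of large to small sums was 2.13 with RHC80267, 2.16 with BMS309403, 2.16 with RANKL and 2.21 with M-CSF. From FPKM and symbols it was 1.76 with RHC80267, 1.73 with BMS309403, 1.74 with RANKL and 1.73 with M-CSF. The 78 genes took 0.575% of summed FPKM with RHC80267, 0.505% with BMS309403, 0.529% with RANKL and 0.415% with M-CSF.

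Over all alternatives, left-out libraries included, the sign held in every fit for 74 of the 78 genes for RANKL, 52 for BMS309403, 69 for RHC80267 against RANKL and 62 for RHC80267 against BMS309403. Among the named genes, Mrps18a in RHC80267 against BMS309403 was at −0.001261 with RLE factors, −0.001237 with DESeq2, −0.01609 without the filter, −0.01429 with the stricter filter, −0.01731 with only those groups and −0.0530 to 0.0367 with a library left out. With a library left out it ranged from −0.06297 to 0.0270 for RHC80267 against RANKL and from −0.0362 to 0.0186 for BMS309403. For BMS309403, Mrpl12 ranged from −0.104 to 0.00989, Mrps30 from −0.00698 to 0.0436 and Mrps36 from −0.104 to 0.101.

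Same-numbered libraries of different groups did not deviate together, with correlations of −0.062 to 0.094, so the numbers were not used as pairs. With the replicate block the counts were 71 higher for RANKL, 1 lower for BMS309403, 32 higher and 3 lower for RHC80267 against RANKL, and 36 higher and 3 lower for RHC80267 against BMS309403. The block ended the calls of Mrpl39 with RHC80267 against RANKL (−0.15, adjusted p = 0.0531) and of Lrpprc with BMS309403 (adjusted p = 0.0627). With 3 libraries a group and 78 to 1271 counts per gene, small changes of the genes with the fewest counts are the least certain.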
